A study of Rattus norvegicus with 6 samples.

Results

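The genes that sense, signal and mend DNA damage were followed in rat aortic smooth muscle cells (RASMCs) exposed to the material of extracellular traps. The set held 44 genes of homologous recombination, the Fanconi anemia pathway, excision, mismatch and end-joining repair and the checkpoint kinases, and 43 of them were among the 22574 gene symbols of the count table. Fancm was not listed under that symbol. The genes were chosen by function with the fold changes of this contrast already known, and the rule for them names the same contrast. Their fold changes and adjusted p-values are therefore given as a description, with no test of the set.

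RNA was measured in 6 libraries of RASMCs, primary cells from the aorta of male Sprague-Dawley rats. In 3 libraries, labelled CitH3+dsDNA, the cells had received citrullinated histone H3 (H3CIT, 0.03 μM) together with dsDNA (300 ng/ml), and 3 control libraries came from cells given BSA. The labels enter the treatment as a genotype and name no genetic change, and the length of exposure was not given in the sources used here. Per the study's reporting statement, replicate wells shared the cells of a rat, so the p-values cover the spread between wells and library preparations, not between animals. The libraries held between 17573905 and 18742395 counts.

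DNA breaks are bound by the MRE11-RAD50-NBN complex, which activates the kinase ATM, while stretches of single-stranded DNA activate ATR. ATM and ATR pass the signal to the effector kinases CHK2 and CHK1. BRCA1 with its partner BARD1, and BRCA2 with PALB2, promote repair by homologous recombination, and the Fanconi proteins clear crosslinks between strands. Ku, a dimer of the products of Xrcc6 and Xrcc5, starts end joining. Excision repair removes damaged bases or bulky adducts, and PARP1 marks nicked DNA to recruit repair proteins such as XRCC1. Smooth muscle cells of atherosclerotic plaques are known to carry oxidative DNA damage.

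Of the 43 genes, 7 rose after CitH3+dsDNA and none fell when the threshold was an adjusted p of 0.05 and edgeR's quasi-likelihood test ran over all 12591 genes with enough counts. Without adjustment 10 had a p under 0.05 on the higher side and 1 on the lower side, and both DESeq2 and limma-voom called 7 higher and 0 lower. The 7 were the kinase genes Atm and Chek2, the recombination genes Brca1 and Brca2, Fance, Ercc6l2 and Parp1. Over all genes tested, 2.20% were called in either direction and 1.94% were called higher. The contrast had been used in choosing the genes, so nothing is read from the larger share among them. The fold changes of the 7 ran from 2.75 to 7.35, that is from 1.46 to 2.88 on the log2 scale. The other 36 genes lay between -0.45 and 0.46 on the log2 scale, with standard errors (SE) from 0.04 to 0.35, and no gene lay between these ranges. The last gene inside the threshold was Brca2 (adjusted p = 9.06e-06), and the first outside was Rad50 (edgeR adjusted p = 0.257). The median log2 fold change of the 43 genes was 0.06, against -0.0013 over all genes tested. In bulk RNA, a change in the make-up of the culture and a change per cell cannot be told apart.

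**Figure D1:**
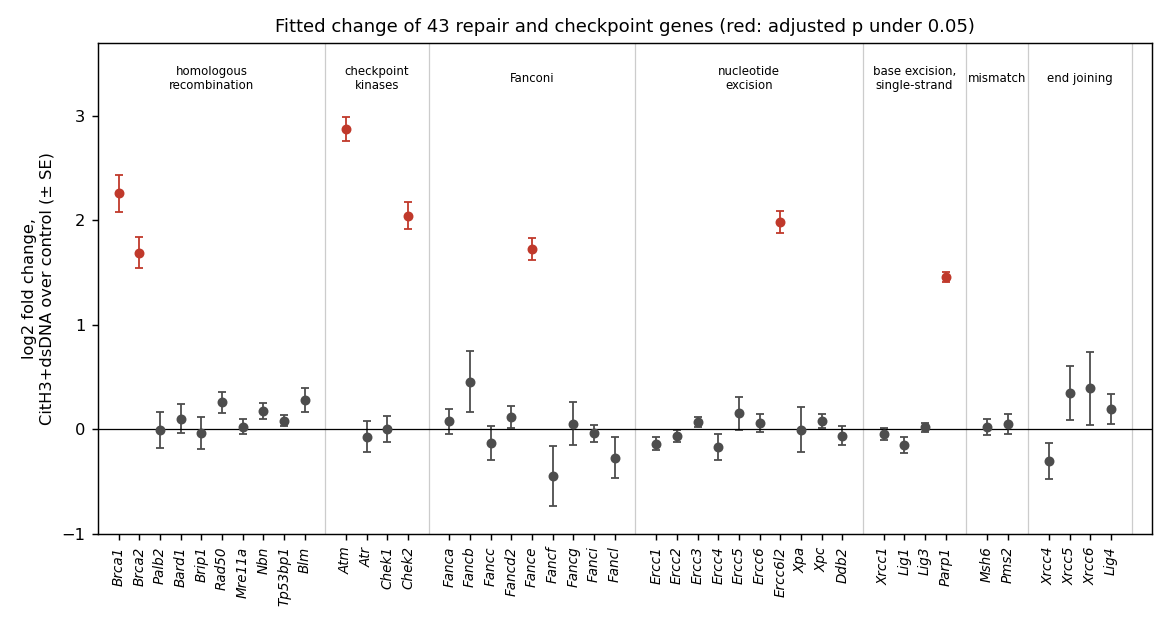
Fitted log2 fold change of each of the 43 genes tested (vertical axis, CitH3+dsDNA over control, bars are standard errors), ordered by role in repair along the horizontal axis. The 7 genes in red lie between 1.46 and 2.88, and the 36 in grey between -0.45 and 0.46.

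The promoters were taken from RefSeq (rat assembly GRCr8, a later build than the one the reads were mapped to), as 300 bases from 250 before to 50 after the first listed start of a gene. An entry was found for 39 of the 44 genes. The E2F motif, by which S phase genes are bound, was searched on both strands as TTTCGCGC, TTTGGCGC or TTTCCCGC. It stood in 8 of the 39 promoters (20.5%) and in 445 of 19005 protein-coding promoters (2.34%). The 8 were those of Atm, Bard1, Chek1, Fancc, Fancd2, Fancl, Lig1 and Msh6, of which Atm alone was among the genes that rose, while Chek2 had no entry. In 4 of the 8 the motif lay wholly before the start, and these sites are shown because they mark where the promoters of the recombination, checkpoint and Fanconi genes carry the same letters. The motif is in capitals, 5′ to 3′ on the strand of the gene, read at chr8:62828841-62828879 (minus strand) for Atm, chr9:80143933-80143980 (minus) for Bard1, chr8:44629844-44629891 (minus) for Chek1 and chr17:1687040-1687087 (plus) for Fancc.
Atm: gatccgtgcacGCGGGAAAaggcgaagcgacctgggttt
Bard1: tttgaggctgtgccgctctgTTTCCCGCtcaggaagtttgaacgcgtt
Chek1: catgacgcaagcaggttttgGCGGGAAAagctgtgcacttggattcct
Fancc: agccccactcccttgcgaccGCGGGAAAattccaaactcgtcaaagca

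The sites of Atm, Chek1 and Fancc are read on the opposite strand, as GCGGGAAA. Bard1, Chek1 and Fancc, which share these letters with Atm, had log2 fold changes of 0.10, 0.0033 and -0.13, with none past the threshold.

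The ETS core CCGGAAGT stood in 6 of the 39 promoters (15.4%, against 4.99% of protein-coding promoters) and the NRF1 core GCATGCGC in 3 (7.69% against 3.23%). The CCAAT box, searched as CCAAT, stood in 35.9% against 38.4%, and the CHR element TTTGAA in 12.8% against 17.0%. The median promoter of the set held 21 CpG dinucleotides against 12 over protein-coding promoters. Among the 6 genes that rose and had an entry, CpG numbers in the 300 bases ran from 4 to 37. Brca1 and the genes with the most and the fewest CpG in the 150 bases before the start are shown over those bases, with each CpG in capitals, at chr10:86977582-86977731 (minus) for Brca1, chr13:94839334-94839483 (plus) for Parp1 and chr20:6371003-6371152 (plus) for Fance.
Brca1: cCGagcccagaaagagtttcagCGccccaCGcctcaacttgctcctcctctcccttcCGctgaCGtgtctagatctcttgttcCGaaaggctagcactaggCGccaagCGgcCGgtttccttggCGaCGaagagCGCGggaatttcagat
Parp1: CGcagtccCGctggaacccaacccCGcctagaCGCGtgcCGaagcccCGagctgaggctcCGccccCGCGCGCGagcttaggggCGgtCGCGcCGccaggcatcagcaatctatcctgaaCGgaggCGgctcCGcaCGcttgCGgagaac
Fance: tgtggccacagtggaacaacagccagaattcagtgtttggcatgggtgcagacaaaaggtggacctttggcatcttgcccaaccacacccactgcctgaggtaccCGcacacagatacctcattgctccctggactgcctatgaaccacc

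These windows hold 13 CpG in Brca1, 21 in Parp1 and 1 in Fance, so the number differed widely between genes that rose. A motif match is a description of letters and not a bound site.

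Atm, the kinase activated by DNA breaks, had counts of 354, 294 and 335 in the CitH3+dsDNA libraries and of 45, 44 and 47 in controls. The groups were far apart, and the controls differed by 3 counts at most. This corresponds to 18.2 ± 1.43 CPM (counts scaled to library size, mean ± SD, n = 3) against 2.47 ± 0.09 CPM (SD, n = 3), which is a fitted log2 fold change of 2.88 (SE 0.12, edgeR adjusted p = 2.77e-09). Chek2, which encodes the effector kinase downstream of ATM, gave 224, 242 and 203 reads against 56, 55 and 54 in controls. Every treated library was above every control. Its log2 fold change was 2.05 (SE 0.13, edgeR adjusted p = 2.70e-07). The other kinase pair, Atr and Chek1, had log2 fold changes of -0.07 (SE 0.15) and 0.0033 (SE 0.12). Chek1 had counts of 151, 139 and 147 after CitH3+dsDNA and of 162, 131 and 151 in controls, which overlapped.

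Brca1, the ubiquitin ligase that directs breaks to recombination, had counts of 131, 149 and 186 after CitH3+dsDNA and of 34, 33 and 32 in controls. The treated libraries were spread widely and the controls hardly at all. The log2 fold change was 2.26 (SE 0.18, edgeR adjusted p = 3.05e-06), from 1.80 ± 0.0928 CPM to 8.64 ± 1.52 CPM (SD, n = 3 each). Brca2, whose product is needed for the strand exchange of homologous recombination, gave 156, 167 and 178 reads against 43, 56 and 59. Here both groups varied and did not overlap, and the log2 fold change was 1.69 (SE 0.15). The binding partners of both proteins did not pass the threshold. Bard1 had a log2 fold change of 0.10 (SE 0.14), Palb2 of -0.0065 (SE 0.17) and the helicase gene Brip1 of -0.04 (SE 0.15).

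The break-sensing complex gave small values. Rad50 had counts of 198, 204 and 220 after CitH3+dsDNA and of 159, 187 and 185 in controls, with a log2 fold change of 0.26 (SE 0.10, adjusted p = 0.257). Its groups did not overlap. Nbn stood at 0.18 (SE 0.08) without overlap, and Mre11a, which encodes the nuclease, at 0.03 (SE 0.07). Blm, the gene of the helicase that dissolves joined DNA molecules, gave 152, 147 and 176 reads against 131, 130 and 137, for a log2 fold change of 0.28 (SE 0.11, edgeR adjusted p = 0.283). Tp53bp1, whose product favours end joining over resection, was at 0.08 (SE 0.05). In 11 of the 43 genes the groups did not overlap, 10 of them higher and 1, the nuclease gene Ercc1, lower after CitH3+dsDNA, where 19.1% of all genes tested did not overlap.

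**Figure D2:**
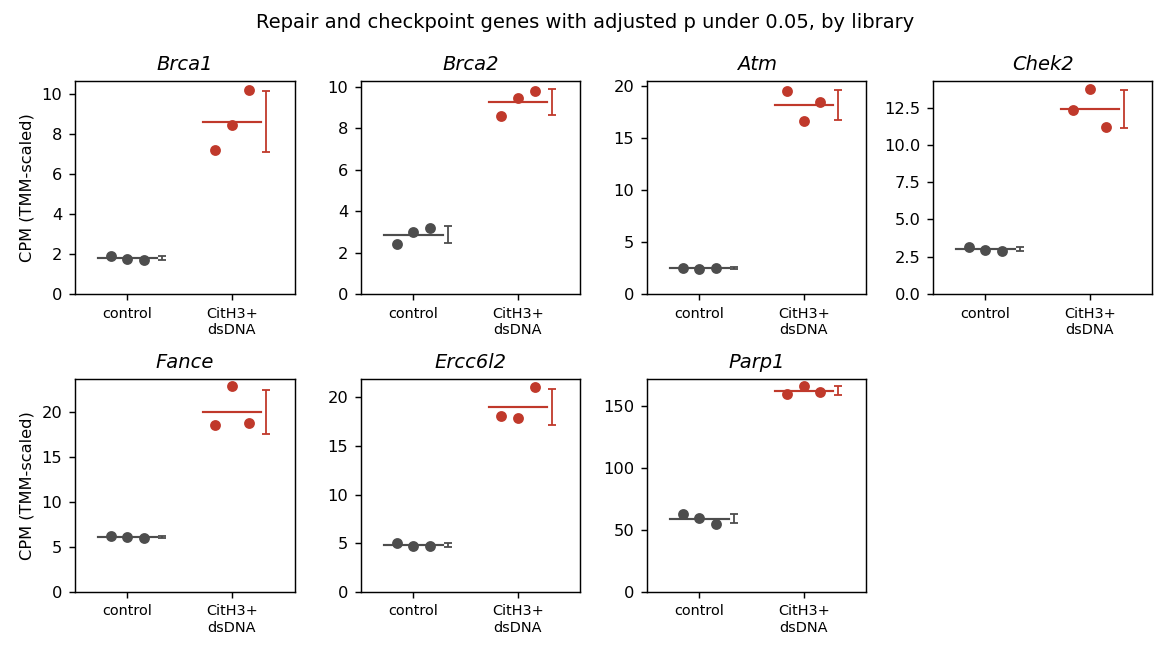
CPM in each library (points), group mean (line) and SD (bar at the side, n = 3) for the 7 genes that rose, each on its own axis from 0. All treated points lie above all control points, and the control points of Atm, Brca1, Chek2, Fance and Ercc6l2 almost coincide.

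Of the 9 Fanc genes tested, Fance alone passed the threshold. Brca1 and Brca2, which are also Fanconi anemia genes, are described above with recombination. Fance encodes the subunit of the Fanconi core complex that contacts FANCD2, and its counts were 335, 402 and 340 against 110, 112 and 111 in controls. The log2 fold change was 1.72 (SE 0.11, edgeR adjusted p = 1.76e-07). Of the other core complex genes, Fanca was at 0.08, Fancb at 0.46, Fancc at -0.13, Fancf at -0.45, Fancg at 0.05 and Fancl, the ligase of the complex, at -0.27 on the log2 scale. Their standard errors were 0.12, 0.29, 0.16, 0.29, 0.21 and 0.19 in that order. The wider errors belong to genes with few reads, such as Fancb with 24, 25 and 21 counts against 14, 23 and 15. Fancd2 and Fanci, which encode the dimer that the core complex modifies, stood at 0.12 (SE 0.11) and -0.04 (SE 0.08).

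Among the genes listed under nucleotide excision repair, Ercc6l2 was the one that rose. It encodes a helicase-like relative of ERCC6, and a role of its product in that repair was not examined here. Its counts were 327, 315 and 383 after CitH3+dsDNA and 89, 88 and 87 in controls. The log2 fold change was 1.98 (SE 0.10, edgeR adjusted p = 3.78e-08). Its relative Ercc6, which restarts stalled transcription, was at 0.06 (SE 0.09). The damage sensors Xpc and Ddb2 were at 0.08 and -0.06, the TFIIH helicases Ercc2 and Ercc3 at -0.06 and 0.07, and the scaffold gene Xpa at -0.0031. The nuclease genes Ercc1, Ercc4 and Ercc5 stood at -0.14, -0.17 and 0.15. None of these 9 genes passed the threshold, and their log2 fold changes lay between -0.17 and 0.15.

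Parp1, which encodes the polymerase that attaches ADP-ribose chains at nicks, had the most reads of the 43 genes in the CitH3+dsDNA libraries. In the mean of the controls, Xrcc6, Lig3 and Tp53bp1 had more. The counts of Parp1 were 2899, 2932 and 2922 after CitH3+dsDNA and 1121, 1100 and 1021 in controls. Mean levels were 162 ± 3.48 CPM against 59.0 ± 3.91 CPM (SD, n = 3 each), which is a fitted log2 fold change of 1.46 (SE 0.05, edgeR adjusted p = 6.05e-10). Xrcc1 and the ligase genes Lig3 and Lig1 did not pass the threshold. Xrcc1 was at -0.04 (SE 0.06), Lig3 at 0.02 (SE 0.04) and the replicative ligase gene Lig1 at -0.15 (SE 0.08). When any 1 library was left out, the log2 fold change of Parp1 stayed between 1.41 and 1.51, of Atm between 2.82 and 2.93 and of Brca1 between 2.12 and 2.37. Those of Brca2, Chek2, Fance and Ercc6l2 ran from 1.58 to 1.77, from 1.97 to 2.11, from 1.62 to 1.77 and from 1.90 to 2.02. The mismatch repair genes Msh6 and Pms2 were at 0.02 and 0.05.

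Ratios of counts between a gene and its partner in the same library do not depend on library scaling. The pairs were chosen after the values were seen, and the ratios are a description. Between the groups, the ratio of Brca1 to Bard1 changed by 2.15 on the log2 scale (SE 0.15, n = 3 each), lying between 1.16 and 1.55 after CitH3+dsDNA and between 0.297 and 0.340 in controls. Atm to Atr changed by 2.96 (SE 0.10), Chek2 to Chek1 by 2.03 (SE 0.13) and Brca2 to Palb2 by 1.72 (SE 0.22). Parp1 to Xrcc1 lay between 3.48 and 3.59 after CitH3+dsDNA and between 1.24 and 1.26 in controls. In each of these 5 pairs the groups did not overlap.

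Many repair genes face another gene across a shared promoter region. In the RefSeq annotation 10 pairs of a member and a protein-coding gene had starts within 1000 bases that pointed away from each other, a search added after the values were seen. Of the 9 neighbours tested, none passed the threshold in edgeR, DESeq2 or limma-voom, 2 had an unadjusted p under 0.05, and their log2 fold changes ran from -0.16 to 0.31. Npat, a histone gene regulator opposite Atm, had counts of 225, 217 and 210 after CitH3+dsDNA and 147, 170 and 220 in controls. Its log2 fold change was 0.31 (SE 0.13, edgeR adjusted p = 0.287), where Atm had 2.88. Nbr1, opposite Brca1 and the gene of an autophagy receptor, was at -0.0020 (SE 0.04), where Brca1 had 2.26. Within libraries, Atm to Npat changed by 2.55 (SE 0.17) and Brca1 to Nbr1 by 2.25 (SE 0.18) on the log2 scale. For Fancd2, Mre11a, Palb2, Pms2, Xpc, Xrcc4 and Xrcc6, which did not pass the threshold, the neighbour did not pass it either.

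The control counts of 5 of the 7 genes that rose lay closer together than counting noise gives on average. For reads drawn at random at equal depth the variance of repeated counts equals their mean on average, a ratio of 1. In controls that ratio was 0.0090 for Fance, 0.011 for Ercc6l2, 0.018 for Chek2, 0.030 for Brca1 and 0.051 for Atm. The SD of the 3 control counts was 1 for Fance, Ercc6l2, Chek2 and Brca1, where the square roots of their means were 10.5, 9.38, 7.42 and 5.74. In these 4 genes the control counts were 3 consecutive whole numbers. Brca2 and Parp1 were at 1.37 and 2.57, and none of the 35 other members with a mean of at least 20 control counts was below 0.06, a bound set after the values were seen.

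Such spread was seen outside the repair genes as well, in groups of genes that here include them. Among genes with a mean of at least 20 control counts, 3 consecutive whole numbers in controls occurred in 21 of 121 called genes with a log2 fold change over 0.5 (17.4%), and in 23 of 11522 genes not called (0.2%). Ratios under 0.06 occurred in 29.8% of the former and 2.58% of the latter. The 7 members that rose were among the 121, with 4 of the 21 runs and 5 of the 36 ratios under 0.06. The 4 called genes of the wider repair list, described below, had 0 and 1 of them. Called genes that fell or rose by less were in neither group. Whether a gene is called depends in part on its own spread, so the difference between these shares is a description. Over all 11781 genes with such a mean, 44 had a run in controls and 333 a ratio under 0.06. In the CitH3+dsDNA libraries no member had such a run, and the median ratio was 2.87 over the 7 genes that rose and 1.75 over the others. Parp1, one of the 7, was at 0.098 there. Close treated counts were also seen outside the members. Runs in the CitH3+dsDNA libraries occurred in 4 of the 121 called genes and 33 of the 11522 not called. Treated ratios under 0.06 occurred in 14 and 343 of them. What made the control counts so alike was not tested. The fit shares its estimate of spread across genes, so the standard errors of these genes do not rest on their own control counts alone.

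**Figure D3:**
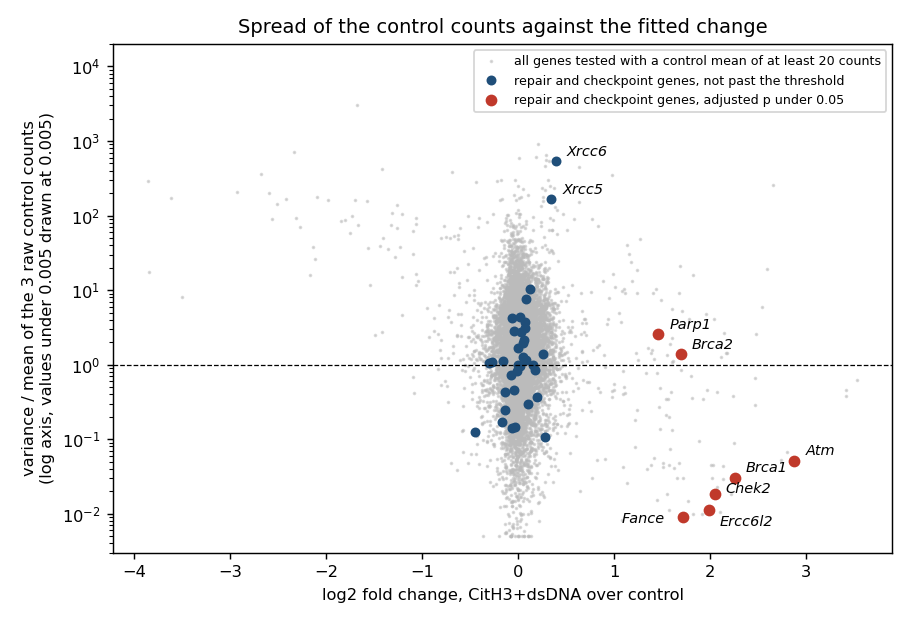
Variance divided by mean of the 3 raw control counts (vertical log axis, values under 0.005 drawn at 0.005) against the fitted log2 fold change (horizontal axis) for all genes with a mean of at least 20 control counts in grey, members not past the threshold in blue and the 7 that rose in red. The dashed line at 1 is the average for counting noise. Fance, Ercc6l2, Chek2, Brca1 and Atm lie at the bottom right, Xrcc5 and Xrcc6 near the top.

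The end-joining genes showed the opposite spread. Xrcc6 had counts of 1819, 1886 and 1933 after CitH3+dsDNA and of 1861, 2061 and 447 in controls. Xrcc5 had 923, 864 and 942 against 885, 966 and 331. Both Ku subunit genes were thus low in control replicate 3 alone, at 22.4% and 35.1% of the mean of the other controls in CPM. With all libraries their log2 fold changes were 0.39 (SE 0.35) and 0.35 (SE 0.26). Without control replicate 3 they were -0.04 (SE 0.05) and -0.0063 (SE 0.05), so that the positive values rested on that library. With any 1 library left out, Xrcc6 ran from -0.04 to 0.71 and Xrcc5 from -0.0063 to 0.59 on the log2 scale. Xrcc4 and Lig4, the genes of the ligase complex of the same pathway, had log2 fold changes of -0.30 and 0.19 with no such departure.

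Control replicate 3 was lower than both other controls by more than 1 on the log2 scale in 22 of 9784 genes with a mean of at least 100 counts. In the other 5 libraries such falls numbered between 1 and 6. Of the 22 genes, 18 had symbols beginning with S to Z (81.8%, against 25.6% of the 9784 genes), in a table ordered almost throughout by symbol. The reason for these falls was not tested.

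**Figure D4:**
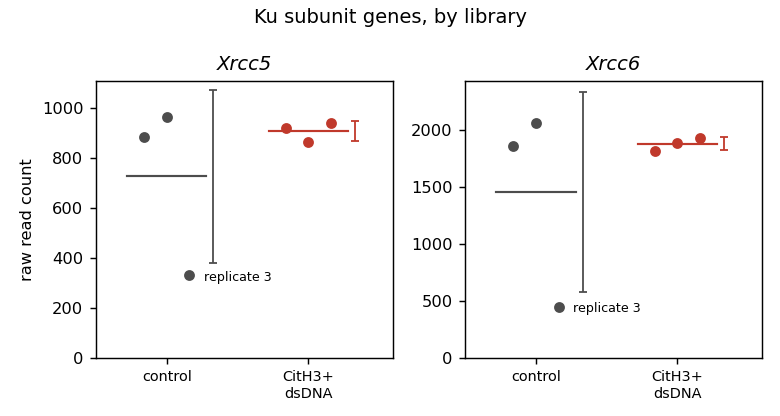
Raw read counts of the Ku subunit genes Xrcc5 and Xrcc6 in each library (points), with the group mean (line) and SD (bar at the side, n = 3), on axes from 0. The control point marked replicate 3 lies at 331 and 447 counts, and the other 5 points of each gene lie close together.

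A wider list of 118 repair and checkpoint genes outside the 44 was drawn up by role, with earlier results of these data known, and 116 of them were tested. In edgeR's quasi-likelihood test 4 rose and none fell, which is 3.45%, against 2.20% of all genes. With library size alone as the scale 8 of the 116 were called, and with robust dispersions 7. The 4 that rose in the first of these fits were Parp2, Parp3, Pcna and Cdk7. Parp2 and Parp3 are the other break-activated members of the PARP family, with Parp2 counts of 660, 623 and 633 against 111, 122 and 120 (log2 fold change 2.47, SE 0.07, edgeR adjusted p = 1.72e-10). Parp3 gave 2663, 2603 and 2545 reads against 565, 554 and 552, a log2 fold change of 2.25 (SE 0.05). All 3 DNA-dependent PARP genes therefore rose, with the groups wide apart. Parg, Tdp1, Aptx and Polb, which act on or after PARP1 at nicks, were in the same list and did not pass the threshold. These 4 were named after their values were seen.

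Pcna, the sliding clamp of replication and of several repair routes, gave 1658, 1681 and 1880 reads against 667, 666 and 656, a log2 fold change of 1.42 (SE 0.05, edgeR adjusted p = 1.71e-09). Cdk7, the kinase of TFIIH, gave 897, 899 and 870 reads against 332, 321 and 320, a log2 fold change of 1.48 (SE 0.06). The 2 other kinase-module genes of TFIIH in the list, Ccnh and Mnat1, did not pass the threshold. Of the 4 genes, Pcna had a control variance-to-mean ratio under 0.06, at 0.056, and Parp3 stood at 0.088, Cdk7 at 0.14 and Parp2 at 0.29.

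By role, the remaining genes of the wider list gave no call in homologous recombination (0 of 35), checkpoint signalling (0 of 13), the Fanconi pathway (0 of 8), mismatch repair (0 of 5), end joining (0 of 6) and translesion synthesis or direct reversal (0 of 12). In the same order 8, 1, 1, 0, 1 and 3 of them had an unadjusted p under 0.05. DESeq2 called 1 gene, in translesion synthesis, and limma-voom none in these roles. In the recombination class, 2 genes outside the naming rule were called under some alternatives and are given after their values were seen. Smc6, a subunit of the SMC5/6 complex, was at 0.28 on the log2 scale (edgeR adjusted p = 0.0558, range 0.0250 to 0.218), and Rbbp8, which promotes resection of breaks, at 0.28 (edgeR adjusted p = 0.0787, range 0.0488 to 0.256). Rev3l, the catalytic subunit of polymerase zeta, gave 145, 109 and 144 reads against 74, 72 and 103, for a log2 fold change of 0.70 (SE 0.17, edgeR adjusted p = 0.0558). Its adjusted p ranged from 0.0137 to 0.256 over the alternatives and was under 0.05 in 8 of 15. Prkdc, the kinase that Ku recruits, was at 0.31 (SE 0.08, adjusted p = 0.0612, range 0.0359 to 0.278). Dclre1c, Hltf, Hus1 and Clspn were at 0.32, 0.23, 0.27 and 0.21. Rif1 was at 0.43, Slx4ip at 0.36 and Wdr48 at 0.07. Rad54b, Mlh3 and Gtf2h3 were at -0.44, -0.37 and -0.23. None of these 12 passed the threshold in edgeR's test.

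**Figure D5:**
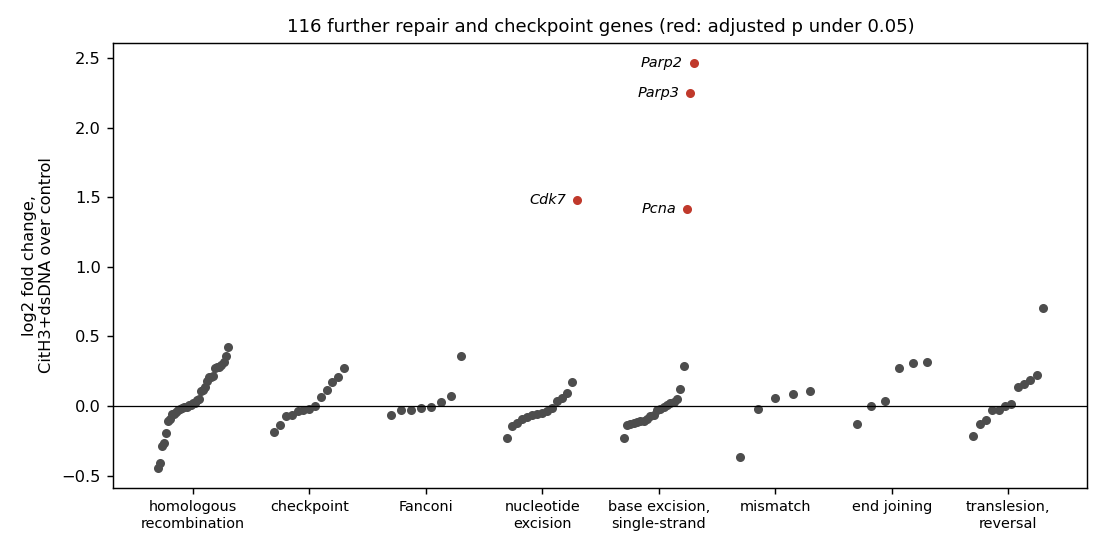
Fitted log2 fold change (vertical axis, CitH3+dsDNA over control) of 116 repair and checkpoint genes outside the 44, by role, each point a gene. Parp2, Parp3, Cdk7 and Pcna, in red, lie between 1.42 and 2.47, and the others between -0.44 and 0.70.

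Other gene groups were read beside these values. Of 29 tested genes of S phase and mitosis, none passed the threshold in edgeR or limma-voom, 7 had an unadjusted edgeR p under 0.05, DESeq2 called 1 higher and 2 lower, and 23 of the 29 had a negative log2 fold change, with a median of -0.06. In 8 of the 29 the groups did not overlap, 2 higher and 6 lower, where 19.1% of all genes tested did not overlap. The 2 higher were Mki67 at 0.26 and Top2a at 0.19 on the log2 scale, named after their values were seen. Pcna, the replication clamp that rose, was counted in the wider repair list and not among these 29. The smooth muscle markers had reads in all libraries, with control means from 18.1 CPM for Myocd to 5025 CPM for Acta2. Of 8, Acta2, Tagln, Cnn1 and Smtn fell and Myocd rose. The call of Smtn (edgeR adjusted p = 0.0386) was lost under some alternatives, where its adjusted p ranged from 0.0176 to 0.202, and limma-voom called 3 of the 8 lower. Myh11, Lmod1 and Des, at 0.06, -0.06 and -0.06 on the log2 scale, did not pass the threshold. The summed level of the 8 was 8484 to 9225 CPM in controls and 5746 to 6303 CPM after CitH3+dsDNA. The largest parts of that sum were Acta2 and Tagln, with means of 5025 and 2690 CPM in controls. Of the 8 macrophage and leukocyte markers, Cd14 had 921 to 994 counts and Csf1r 296 to 374 in the 6 libraries, and both overlapped between groups. Cd68 had 13, 19 and 15 counts after CitH3+dsDNA and 10, 18 and 14 in controls. Lyz2 had 1, 12 and 9 against 17, 10 and 13, and Adgre1 had 21 to 35. These 3 had few reads and overlapped as well. Aif1 had 8, 9 and 9 counts after CitH3+dsDNA and 2, 2 and 3 in controls, too few to be tested, and Ptprc and Itgam had at most 1 count in any library. Of the 5 endothelial markers, Cdh5 had 73 to 105 counts with overlap, and Kdr had at most 1. The 3 endothelial markers tested had negative log2 fold changes, and 0 of them passed the threshold. Summed macrophage markers were at 73.5 to 76.6 CPM in controls and 72.7 to 75.0 CPM after CitH3+dsDNA, and endothelial markers at 6.52 to 7.45 and at most 6.34 CPM. Most of the macrophage sum came from Cd14 and Csf1r, with means of 52.3 and 19.7 CPM in controls. The part of these markers in the results was not tested.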

How the data were processed

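Raw counts per gene of 6 RASMC libraries (3 CitH3+dsDNA, 3 control) were used. Per the methods, the authors prepared libraries with a stranded mRNA kit, aligned to Rnor6.0 using TopHat 2.1.1 and counted with HTSeq. The deposited counts are whole numbers per gene symbol that were not normalized. The submitters' processing notes also name Cufflinks 2.2.1 and Cuffdiff, and a reporting form names STAR. The strand setting of the counting was not given in the sources used here, so overlapping genes, antisense genes and near-identical copies may share reads. Groups came from the sample titles, and doses from the study's methods.

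The filter filterByExpr left 12591 genes. TMM scaling came next, and then the two-sided quasi-likelihood test in edgeR 4.0.16 (R 4.3.3) with p-values adjusted by Benjamini-Hochberg over those genes. Rose, fell and called mean an adjusted p under 0.05. CPM were scaled by TMM. A standard error is the coefficient without shrinkage over the root of its F statistic. The code was tested on simulated data. Totals were 17573905 to 18742395 counts per library. No pair of replicates agreed within counting noise (smallest chi-square per gene 3.33).

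The members and all lists were chosen with earlier results of these data known. Members were to be given with every library's value where called, or where the groups did not overlap and the log2 fold change was at least 0.2 in size. Of the wider list, called genes and the 2 largest changes of each role were named, and of the proliferation list the called genes. Some items that this rule names are not reported here. The partner ratios, neighbours, the spread of control counts and single-library falls were taken up after values were seen. The rule's choice by level per coding length was not applied, since coding lengths were not at hand. Replicate numbers did not pair the libraries. Alternatives were 3 other scalings, DESeq2 1.42.0, limma-voom (limma 3.58.1), no filter, at least 10 counts in every library, robust dispersions, a block for replicate number, and fits without each library in turn.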

Additional observations from a re-analysis of the deposited data

How the results depend on the processing

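All 7 members that rose kept their direction and their call under all 15 alternatives, and no other member was called under any of them. With the replicate block 7 members and 212 genes in all were called, and the block changed no member's call. Libraries with the same number deviated from their group means with correlations of -0.0458, 0.00452 and 0.0355 across genes, so the numbers do not pair them. The number of all genes called, 277, ranged between 164 and 357 in the leave-one-out fits, with 164 without CitH3+dsDNA replicate 1 and 184 without control replicate 1. It was 357 without control replicate 3, and the cause was not tested. Called genes of the wider repair list, 4, were 8 with library size alone and 7 with robust dispersions, and 4 to 6 with a library left out. The added genes were Prkdc, Rev3l and Smc6 under both settings and Rbbp8 with library size alone, and the cause was not tested. The share of higher genes among all calls was 88.1%, 91.8% when library size alone set the scale and 83.6% under upper-quartile factors. The median of all genes moved by at most 0.02 on the log2 scale under any scaling. Depth limits Fancb and Fancf, with at most 34 counts, where a small change was not detectable.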
